A study of Rattus norvegicus with 4 samples.

Results

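The 250 spots described here carried the highest levels of 5 fibroblast genes among the spots of rat trigeminal nerve tissue on 4 Visium capture areas. Lum (lumican), Dcn (decorin), Mgp (matrix Gla protein), Smoc2 and Htra3 were counted in each spot, a spot being a small region of barcoded slide that can hold several cells of different types. Counts were scaled to CPM, that is unique molecular identifiers (UMIs, each standing for 1 captured transcript) per 1000000 UMIs of the spot. Of 6773 spots in the file, 6623 had 2000 or more UMIs, and the 250 with the highest summed CPM of the 5 genes were kept. The spots were thus chosen by measured levels of these 5 genes, and their marker levels, and their levels of any other gene against the remaining spots, are given as a description and were not tested.

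Areas TN1, TN2 and TN3 each held trigeminal root, ganglion and proximal branches of the diseased side of 1 wild-type Sprague-Dawley rat with trigeminal neuralgia (TN) after compression of the trigeminal root, and the HC (healthy control) area held tissue of 2 wild-type rats. The series description places the HC tissue on the healthy side of rats that also gave TN tissue, whereas the study's methods describe sham-operated controls. No transgene or drug was involved, and cryosections were 10 μm thick. The day of tissue collection is not stated in the sources used here. The areas held 23546025, 38769935 and 32239597 UMIs for TN1, TN2 and TN3 and 41335930 UMIs for HC.

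Fibroblasts of a peripheral nerve make up its connective tissue. They fill the endoneurium between the axons and form the epineurium around the nerve, and at the root they pass into the leptomeninges, whose fibroblasts make retinoic acid and prostaglandin D synthase. Decorin and lumican are small leucine-rich proteoglycans that bind collagen fibrils, matrix Gla protein inhibits calcification of soft tissue and is abundant in vessel walls and cartilage, Smoc2 is a matricellular calcium-binding protein, and Htra3 is a secreted serine protease. After nerve injury, fibroblasts produce fibronectin, collagens, periostin and tenascin-C.

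All 250 spots lay on TN areas. TN1 held 96 of its 1578 spots (6.08%, exact 95% interval 4.96 to 7.38%), TN2 88 of 1240 (7.10%, 5.73 to 8.67%) and TN3 66 of 1801 (3.66%, 2.85 to 4.64%). HC held 0 of 2004 spots, with an exact upper limit of 0.184%; the level of 3 spots, a simpler limit for a count of 0, allows a share of up to 0.150%. These limits cover counting error only, since each group of spots came from 1 area. The TN3 share was below those of TN1 and TN2, whose intervals overlapped. This order depended on the rule: by the mean rank over the 5 markers TN1 held 6, TN2 162 and TN3 82 spots. The highest HC spot stood at rank 736 with 3738 CPM of the 5 markers, and only 5 of the first 1000 and 34 of the first 2000 spots were HC spots.

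**Figure D1:**
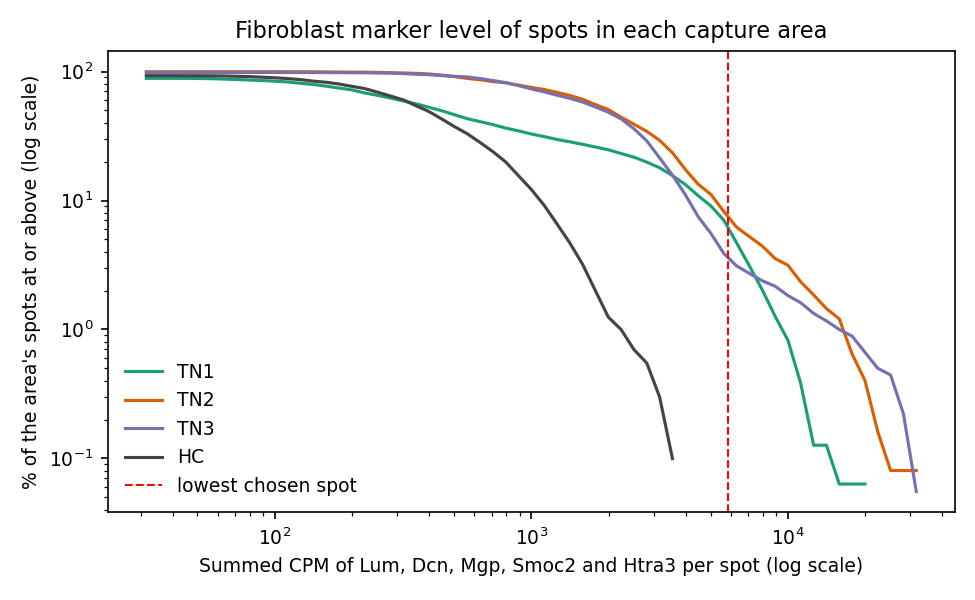
Percent of the spots of each capture area (vertical axis, log scale) whose summed CPM of the 5 markers reached the value on the horizontal axis (log scale); lines are areas and the dashed line is the lowest chosen spot. The HC line ends near 3738 CPM, left of the dashed line at 5856 CPM, while 6.08%, 7.10% and 3.66% of TN1, TN2 and TN3 spots lie to the right of it.

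Ranks ran from 35104 CPM at rank 1, a TN3 spot, down to 5859 and 5856 CPM for the last 2 chosen spots, both in TN1. The next 2 spots, just outside, were at 5831 CPM (TN2) and 5824 CPM (TN1), so the limit of 250 spots fell in a smooth decline and not at a gap. Depth differed between areas. The chosen spots had a median of 7026 UMIs in TN1 against 9826 in its other spots, 40513 against 30250 in TN2 and 19553 against 15037 in TN3, and the HC spots had a median of 14661. Chosen spots were thus shallower than the rest of their area in TN1 and deeper in TN2 and TN3. Barcodes mark slide positions and recur between areas: 2337 of 3573 distinct barcodes occurred on 2 or more areas, and the 250 chosen spots carried 248 distinct barcodes, 2 of which were chosen on 2 areas.

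The marker that led differed by area. Over the summed UMIs of the chosen spots, Dcn stood at 4562, 2195 and 2400 CPM in TN1, TN2 and TN3, against 520, 898 and 948 CPM in the other spots of the same areas and 222 CPM in HC. Mgp was lowest where Dcn was highest, at 1784, 6972 and 10680 CPM, against 189, 895 and 725 CPM in their other spots and 111 CPM in HC. Lum varied less, at 1423, 1001 and 1237 CPM, against 157, 322 and 284 CPM in the other spots and 96.9 CPM in HC. Smoc2 and Htra3 were low in TN1: Smoc2 was at 25.03 CPM there against 490 and 250 CPM in TN2 and TN3. Htra3 was at 50.1, 558 and 353 CPM. Of the 96 chosen TN1 spots, 15 had a UMI of Smoc2 and 32 had one of Htra3, whereas 84 and 88 of the 88 TN2 spots did. The TN1 values rested on 20 UMIs of Smoc2 and 40 of Htra3. The chosen TN2 spots were also deeper, and the part of depth in these counts was not tested.

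The median share of Mgp among a spot's UMIs of the 5 markers was 16.5%, 60.4% and 67.3% in these areas. Single spots spread widely around these levels. Per spot, Dcn had its lowest, median and highest values at 718, 4494 and 9146 CPM in TN1, at 805, 2000 and 7057 CPM in TN2 and at 554, 2223 and 5579 CPM in TN3. Mgp ran from 0 through 1107 to 16170 CPM in TN1, from 1167 through 5127 to 29922 CPM in TN2 and from 499 through 6554 to 28076 CPM in TN3. The ranges of the areas overlapped for both genes, while the medians of TN1 lay apart. Spots with over 50% of the marker UMIs from Mgp numbered 4 of 96 in TN1, 69 of 88 in TN2 and 47 of 66 in TN3. Spots with over 50% from Dcn numbered 85, 3 and 10. TN1 spots were therefore chosen mostly for Dcn, and TN2 and TN3 spots mostly for Mgp, within a single rule.

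Promoter windows for the marker genes were looked up in the RefSeq annotation of build GRCr8, and 2 of the 5 markers, Lum and Htra3, matched. They are shown because they are the markers with a window in the table and their levels differed in opposite ways between TN1 and the other areas. Each window runs from 250 bases before to 50 bases after the annotated start, on the gene's strand, and capitals mark matches on either strand to the CCAAT box (CCAAT) or the GC box (GGGCGG).
Lum, chr7:34245456-34245755, plus strand: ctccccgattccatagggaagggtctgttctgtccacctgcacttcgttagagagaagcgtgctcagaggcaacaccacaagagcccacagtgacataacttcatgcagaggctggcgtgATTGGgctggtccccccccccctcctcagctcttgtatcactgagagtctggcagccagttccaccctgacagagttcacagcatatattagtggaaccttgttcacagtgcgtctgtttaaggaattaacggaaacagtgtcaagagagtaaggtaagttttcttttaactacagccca
Htra3, chr14:79293291-79293590, plus strand: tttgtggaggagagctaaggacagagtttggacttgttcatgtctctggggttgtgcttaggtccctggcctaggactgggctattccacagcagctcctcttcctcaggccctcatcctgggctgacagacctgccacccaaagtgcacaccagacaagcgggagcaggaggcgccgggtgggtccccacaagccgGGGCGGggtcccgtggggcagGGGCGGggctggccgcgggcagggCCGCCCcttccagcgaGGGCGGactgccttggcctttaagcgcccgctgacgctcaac
The Lum window held 1 CCAAT box and 0 GC boxes, and the Htra3 window held 4 GC boxes and 0 CCAAT boxes. Of 33469 promoters of the same length, 37.5% held a CCAAT box and 33.1% a GC box. Neither window held the letters of a TATA box (TATAAA, in 14.2% of promoters), an AP-1 site (TGANTCA, in 7.33%) or a TEAD site (GGAATG, in 14.2%). These matches describe letters in the window only.

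The chosen spots were next compared with the other spots of 2000 or more UMIs in the same area, which asks what else these places on the section contained. UMIs were summed over spots and a ratio was taken on the log2(CPM + 5) scale, which understates the ratios of low genes. Over the 11200 genes with 1 CPM or more over the spots of every TN area, markers left out, 90 genes (0.804%) were 2-fold or more higher in the chosen spots of all 3 areas and 66 (0.589%) were 2-fold or more lower. Over all these genes the median log2 ratio stood at -0.10, 0.03 and -0.03 in TN1, TN2 and TN3. All 3 ratios were above 0 for 24.3% of the genes and below 0 for 28.7%. With TN1 left out the count of higher genes was 177, and with TN3 left out the count of lower genes was 428.

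Matrix genes headed the list. Fn1 (fibronectin) was at 339, 1312 and 2257 CPM in the chosen spots of TN1, TN2 and TN3 against 51.02, 275 and 267 CPM in their other spots, a log2 ratio of 2.64 ± 0.41 (SD, n = 3 areas). The chosen spots were higher in every area, and the level in TN1 was far below those in TN2 and TN3. Bgn (biglycan, a relative of decorin) was at 208, 1028 and 1270 CPM against 44.95, 238 and 242 CPM, with a log2 ratio of 2.18 ± 0.16. Eln (elastin) was at 81.3, 86.5 and 160 CPM against 5.98, 19.6 and 20.01 CPM. Its TN1 value rested on few spots: 9 of 96 TN1 spots had an Eln UMI, whereas 76 of 88 TN2 spots did. Tagln (transgelin, an actin-binding protein of smooth muscle and myofibroblasts) was at 204, 160 and 491 CPM against 33.6, 38.7 and 37.7 CPM. In TN1, 85.9% of the Tagln UMIs came from the tenth of chosen spots that had the most.

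The fibrillar collagens Col1a1 and Col3a1 had log2 ratios of 2.08 ± 0.42 and 2.23 ± 0.50 (SD, n = 3 areas). Col3a1 was at 2154, 2972 and 4101 CPM in chosen spots against 315, 875 and 906 CPM in other spots, and Col1a1 at 2190, 4012 and 6061 CPM against 373, 1225 and 1526 CPM. The levels of both genes thus followed the order TN1, TN2, TN3 in chosen and other spots alike. Serpinf1 (pigment epithelium-derived factor) had a log2 ratio of 2.01 ± 0.33, and Cthrc1, a secreted protein of activated fibroblasts, 1.92 ± 0.15. Cd248 (endosialin, on fibroblasts and pericytes) was at 60.1, 153 and 128 CPM against 10.3, 39.2 and 35.3 CPM. Fbn1 (fibrillin-1 of the microfibrils), Col6a2 (a microfibrillar collagen chain), Prelp (a proteoglycan near basement membranes), Gask1b and Clec3b (tetranectin) were also among the 15 genes with the highest lowest ratio. Col11a1, a minor fibrillar collagen, showed the least spread between areas, with log2 ratios of 1.60, 1.55 and 1.57.

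Genes of central glia and neurons headed the opposite end. Mog (a myelin protein of oligodendrocytes) was at 11.3, 17.4 and 10.3 CPM in chosen spots against 145, 63.2 and 56.0 CPM in the other spots. Aqp4, the water channel of astrocytes, was at 22.5, 56.3 and 29.5 CPM against 225, 165 and 165 CPM. Agt (angiotensinogen), Mobp and Olig1 (both of oligodendrocytes), Acsbg1, Disp2, Lynx1, Ntsr2 and the acid-sensing channel gene Asic3 completed the 10 lowest. The log2 ratio of Asic3, a channel of sensory neurons, was -1.42 ± 0.13 (SD, n = 3 areas), and that of Mog was -2.27 ± 0.83.

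**Figure D2:**
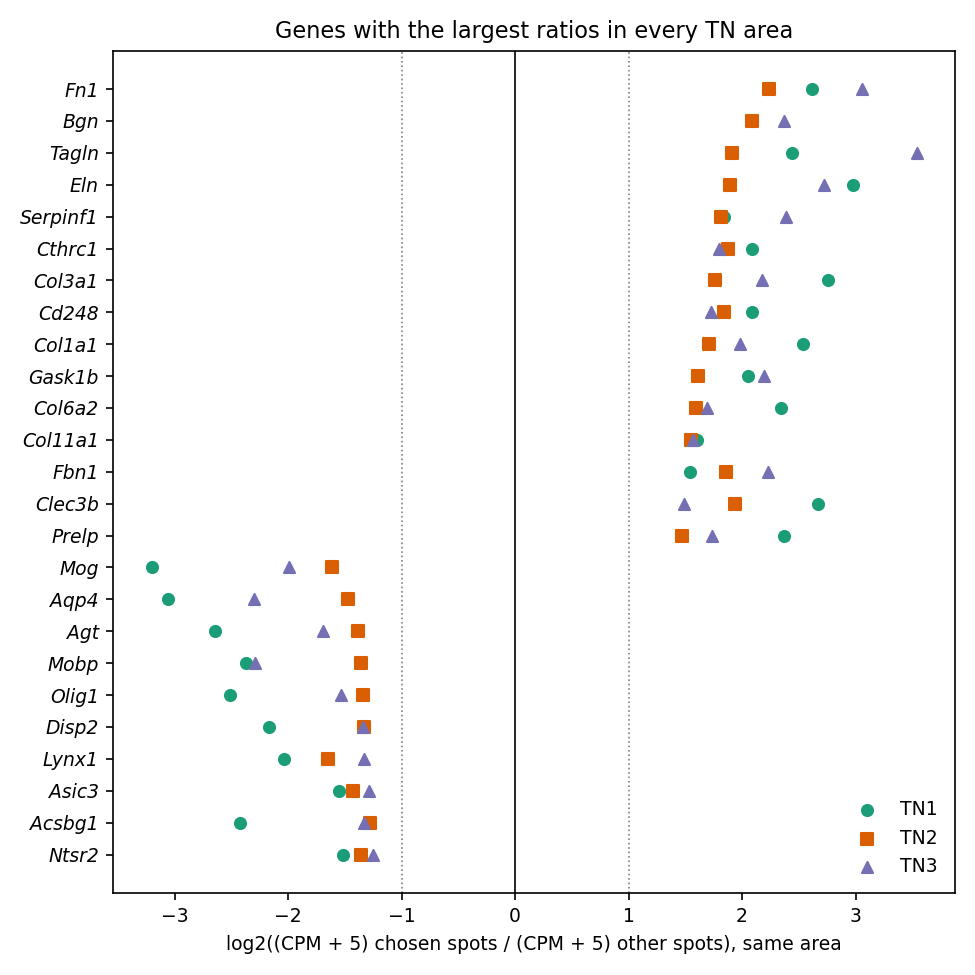
Log2 ratio of chosen to other spots of the same area (horizontal axis, CPM + 5) for the 15 genes with the highest lowest ratio and the 10 with the lowest highest ratio; points are the TN areas and dotted lines mark 2-fold. Fn1 lies between 2.23 and 3.06 and Mog between -3.20 and -1.61, while Tagln, from 1.91 in TN2 to 3.54 in TN3, is more widely spread than Col11a1.

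Gene lists placed these genes in groups. Of 15 counted genes of the fibroblast list, 9 were 2-fold or more higher in all areas and 0 lower, against 0.804% and 0.589% of all genes. The median log2 ratio of the list was 1.85, 1.43 and 1.35 in TN1, TN2 and TN3. Islr, Pcolce (procollagen C-proteinase enhancer) and Pdgfra (the PDGF receptor of fibroblasts) were among the 9, with Pdgfra at 113, 138 and 133 CPM against 28.7, 48.7 and 62.4 CPM. Fbln2 (fibulin-2) was the member below 0 in all areas, at log2 ratios of -0.62, -0.73 and -0.17. Mfap4, Twist2 and Prrx1 were under the minimum of 1 CPM, and Col1a2 and Col6a3 were not found by symbol.

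Among matrix families, 7 of 14 counted collagens and 3 of 5 small leucine-rich proteoglycans (Bgn, Prelp and Ogn) were 2-fold or more higher in all areas, and 0 were lower in either family. Counts in this paragraph stand beside 0.804% of all genes that were 2-fold or more higher in all areas and 24.3% that were above 0. Of the elastic fibre genes, 8 of 13 were higher by this count, Eln, Fbn1, Mfap2 and the cross-linking enzyme gene Lox among them, whereas Fbln5 (fibulin-5) was at 57.6, 49.0 and 78.9 CPM against 102, 102 and 85.6 CPM. Of the basement membrane genes, 2 of 10 passed the 2-fold limit, Col4a1 and Nid1 (nidogen-1), but 9 of 10 were above 0 in all areas, and their median log2 ratio of 1.83 in TN1 compared with 1.001 in TN2 and 0.66 in TN3. Lama2, the laminin chain around Schwann cells, was at 308 CPM in TN1 chosen spots against 52.4 CPM in its other spots and at 141 against 88.1 CPM in TN3. Of 13 proteases and inhibitors 5 were higher, Mmp2 (gelatinase A), Ctsk (cathepsin K), Serping1 (C1 inhibitor), Adamts2 and Serpinf1, while the inhibitor genes Timp1, Timp2 and Timp3 stayed under 2-fold in TN2 and TN3. Of 12 adhesive and matricellular genes 2 passed, Fn1 and Postn, and 9 were above 0 in all areas.

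Secreted regulators were counted in the same way, beside the 0.804% of all genes that were 2-fold or more higher in all areas. Igfbp4 and Igfbp7, which bind insulin-like growth factors, were the 2 of 10 genes of the IGF axis that were 2-fold or more higher in all areas, Igfbp7 at 777, 2978 and 3907 CPM against 353, 1025 and 1108 CPM. Igfbp5 was at 160 CPM in TN1 against 102 CPM in its other spots, and at 2089 and 1104 CPM in TN2 and TN3 against 387 and 223 CPM. None (0 of 12) of the BMP, TGF-beta and Wnt ligands and antagonists counted passed in all areas, which is near the share of all genes. Tgfb1, a growth factor that raises matrix synthesis, was at log2 ratios of 1.30, 1.25 and 0.86, and Sfrp4, a Wnt antagonist, at 2.21, 1.98 and 0.83. Of the chemokine and complement genes, 2 of 11 passed, C1s and C1r, the proteases that start the classical complement pathway. C1s was at 171, 492 and 644 CPM in the chosen spots against 27.1, 180 and 210 CPM. The chemokine genes Ccl2 and Cxcl12 stayed under 2-fold in every area, and Cxcl14 was lower in chosen spots of all areas, at 42.5, 332 and 260 CPM against 77.0, 380 and 527 CPM.

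Genes of activated fibroblasts were split. Postn (periostin), Acta2 (smooth muscle actin), Cthrc1 and Fap (fibroblast activation protein) were the 4 of 8 that were 2-fold or more higher in all areas, against 0.804% of all genes. In TN1, Acta2 was at 387 CPM in the 4 spots led by Mgp and at 2.93 CPM in the 85 led by Dcn, below the 4.97 CPM of its other spots, and 9 of 96 spots had a UMI of Postn. Postn was at 17.5 CPM in TN1 chosen spots and at 256 and 392 CPM in those of TN2 and TN3, against 4.18, 46.3 and 36.7 CPM. Tnc (tenascin-C) went opposite ways, at 11.3 CPM in TN1 chosen spots against 40.5 CPM in its other spots, and at 239 and 283 CPM in TN2 and TN3 against 86.5 and 89.0 CPM. Lrrc15 had no UMI in any chosen spot. Of the nerve injury list, 0 of 6 counted genes passed, near the 0.804% of all genes. In this list 4 were below 0 in all areas, against 28.7% of all genes. Atf3, an injury transcription factor, was at 46.3, 218 and 120 CPM in chosen spots against 84.0, 264 and 179 CPM. Immediate early genes, which handling of tissue can raise, were above 0 in all areas for 3 of 5 counted (Junb, Egr1 and Ier2), against 24.3% of all genes. Past 2-fold were 0 of 5, near the 0.804% of all genes.

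**Figure D3:**
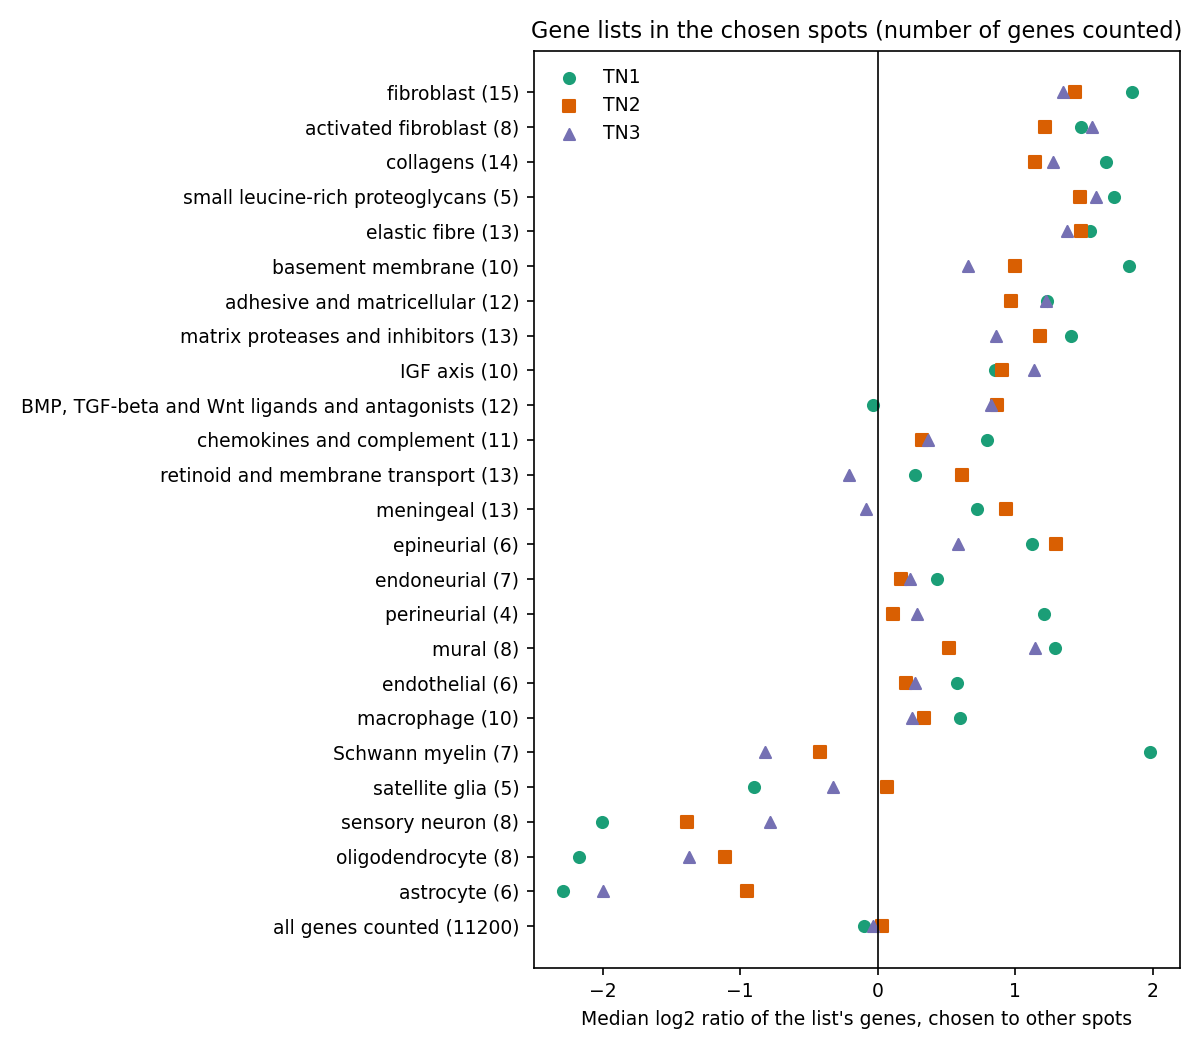
Median log2 ratio of chosen to other spots of the same area (horizontal axis) for each gene list, with the number of genes counted in brackets; points are the TN areas. Fibroblast and matrix lists lie to the right of 0 in every area, neuron, oligodendrocyte and astrocyte lists lie to the left, and the Schwann myelin list is at 1.98 in TN1 but at -0.42 and -0.82 in TN2 and TN3.

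The name of a meningeal sheath held for part of the spots only. Of 13 counted meningeal genes, 1 was 2-fold or more higher in all areas, against 0.804% of all genes. This was Foxd1, at 12.5, 65.3 and 46.5 CPM against 3.39, 15.5 and 13.1 CPM. The list's median log2 ratio was 0.72, 0.94 and -0.09. Foxc1, a transcription factor of the meninges, was at 28.8, 205 and 98.8 CPM against 8.93, 48.1 and 47.1 CPM, just under the limit in TN3. Ptgds, the prostaglandin D synthase gene, was at 6697 CPM in TN2 chosen spots against 3460 CPM in its other spots, but at 941 and 727 CPM in TN1 and TN3 against 1526 and 1532 CPM. Slc6a13, a GABA and taurine transporter of leptomeningeal cells, was at 50.1 and 160 CPM in TN1 and TN2 against 14.7 and 80.6 CPM, and at 45.7 CPM in TN3 against 102 CPM. Of the 250 spots with the highest summed meningeal genes on all areas, 28 (11.2%) were among the chosen ones, 27 of them in TN2. Of all spots, 3.77% were chosen. Within TN2, the 16 spots in which no marker gave over 50% of the marker UMIs had 13400 CPM of Ptgds, against 5308 CPM in the 69 spots led by Mgp. Stra6, the receptor for retinol-binding protein, was at 5.01, 48.4 and 41.3 CPM in TN1, TN2 and TN3 against 1.06, 6.99 and 7.28 CPM in their other spots. Crabp2, which carries retinoic acid, was at 37.5, 314 and 225 CPM against 31.1, 124 and 111 CPM. Slc6a20, Slc47a1 and the mesothelial genes Upk3b, Lrrn4 and Krt19 had no UMI in any chosen spot, and Msln (mesothelin) was at 0, 47.9 and 29.5 CPM.

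Markers of other cell types moved with the choice, and their part in the ratios was not tested. Schwann myelin genes were abundant in TN1 chosen spots: the 7 genes summed to 108447 CPM there against 24210 CPM in its other spots, and to 16833 and 20651 CPM in TN2 and TN3 against 22215 and 35786 CPM. Of the 250 spots highest for these genes, 33 (13.2%) were chosen spots, all in TN1, beside the 3.77% of all spots that were chosen. Mural genes, of vessel muscle and pericytes, summed to 461, 437 and 814 CPM against 117, 174 and 161 CPM. In TN1 this sum came largely from 4 spots led by Mgp, at 4329 CPM, while the 85 led by Dcn were at 150.9 CPM and the spot medians were 107 CPM for chosen and 79.5 CPM for other spots. Of the mural genes, 2 of 8 passed 2-fold in all areas, Tagln and Acta2, against 0.804% of all genes. However, 6 of the 96 TN1 spots had a UMI of Acta2. Macrophage genes summed to 1094, 2894 and 3880 CPM against 670, 1818 and 2235 CPM, with Lyz2 the most abundant. Of these genes, 7 of 10 were above 0 in all areas, against 24.3% of all genes, and 0 were past 2-fold, against 0.804%. Sensory neuron genes were below 0 in all areas for 8 of 8, oligodendrocyte genes for 7 of 8, astrocyte genes for 5 of 6 and satellite glia genes for 2 of 5, against 28.7% of all genes. In bulk sums of spots, fewer cells of a type and less RNA per cell cannot be told apart.

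The overlap with spots that were highest for other gene lists described the same places in another way. Of the 250 spots with the highest summed fibroblast list, 130 (52%) were chosen spots, and the same share of the chosen 250 were in that list. By area these were 23 in TN1, 60 in TN2 and 47 in TN3. Spots highest for epineurial genes (Pi16, Clec3b and Fbn1 among them) shared 108 (43.2%), for mural genes 57 (22.8%), for perineurial genes 30 (12%) and for endoneurial genes 16 (6.4%), beside the 3.77% of all spots that were chosen. In TN1, TN2 and TN3 these were 11, 64 and 33 epineurial, 9, 22 and 26 mural, 25, 2 and 3 perineurial and 2, 5 and 9 endoneurial spots. Spots highest for oligodendrocyte, astrocyte, sensory neuron or brain stem neuron genes shared 0. Fbn1 is in both the epineurial and the elastic fibre list. By gene, the epineurial list had 2 of 6 genes past 2-fold in all areas, Clec3b and Fbn1, beside 0.804% of all genes. Above 0 in all areas were 4 of 6, beside 24.3% of all genes. Pi16 stayed under 2-fold, Comp was at log2 ratios of 0.13, -0.32 and -0.35, and Dpp4 at -0.03, 0.20 and 0.46. The endoneurial list had 0 of 7, with median log2 ratios of 0.43, 0.17 and 0.23, and the perineurial list 0 of 4, at 1.21, 0.11 and 0.29. Endothelial genes passed in 0 of 6, at 0.58, 0.21 and 0.27, and blood genes in 0 of 7. Cartilage genes summed to 1214 CPM in TN1 chosen spots against 354 CPM in its other spots. Cnmd alone gave 1156 and 337 CPM of these sums, so that they describe mainly this gene. Of the 250 spots highest for the list, 39 (15.6%) were chosen spots, all in TN1. Adipocyte genes also shared 39 spots, 11, 9 and 19 in TN1, TN2 and TN3, and pituitary genes shared 13 (5.2%, near the 3.77% of all spots), all in TN2. The cartilage, mast cell, bone, skeletal muscle and brain stem neuron lists each had only 1 or 2 genes above the minimum.

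The chosen spots of TN1 and those of TN2 and TN3 differed in more than the markers. Over the 11200 genes, 72 (0.643%) were at least 4-fold higher in the chosen spots of both TN2 and TN3 than in those of TN1, and 59 (0.527%) were at least 4-fold higher in TN1 than in both; this division of areas was made after the values were seen and has no test. In the other spots of the same areas these counts were 42 and 1, with 22 and 1 genes shared. Among the genes higher in TN2 and TN3 were the matrix genes Tnc, Postn, Ltbp2 and Loxl1, and genes of other kinds such as Fabp4. Of these, Postn and Loxl1 were over 4-fold higher in the other spots of TN2 and TN3 too, Loxl1 at 12.4, 94.1 and 73.4 CPM. In this group were also Ccn2 (connective tissue growth factor) at 7.51, 103 and 221 CPM and Lbp (lipopolysaccharide-binding protein) at 6.26, 270 and 160 CPM. Gpnmb, a glycoprotein of phagocytes, was at 41.3, 410 and 583 CPM, and the phagocyte gene Cd68 at 18.8, 144 and 231 CPM, but their other spots differed in a like way, at 14.9, 215 and 259 CPM and at 11.1, 81.6 and 111 CPM. Ccn2 and Ltbp2 were low in the other spots of every area, at 6.82, 14.4 and 9.75 CPM and at 4.18, 13.2 and 5.59 CPM. Pituitary growth hormone, Gh1, was also in this group, at 6.26, 443 and 102 CPM against 15.7, 214 and 99.2 CPM in other spots.

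In the opposite direction, TN1 chosen spots held the Schwann genes Pmp22, Prx, Mal, Drp2 and Cntf together with genes of other kinds. Myoc (myocilin, secreted in peripheral nerve) was at 2715 CPM in TN1 against 171 and 433 CPM in TN2 and TN3, and its other spots stood at 322, 319 and 424 CPM. Scara5 (a ferritin receptor of some fibroblasts) was at 190, 33.6 and 37.6 CPM against 14.7, 31.0 and 42.1 CPM in other spots. The Wnt antagonist gene Sfrp5 was at 767, 46.5 and 121 CPM, Crispld2 at 275, 46.5 and 32.5 CPM, and Cnmd (chondromodulin) at 1156, 48.7 and 126 CPM. Il33, an alarmin cytokine, was at 529, 96.6 and 127 CPM against 84.2, 84.6 and 119 CPM in other spots. In the 85, 3 and 10 spots led by Dcn of TN1, TN2 and TN3 it was at 526, 426 and 393 CPM.

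The Dcn-led composition of TN1 was also found in a few spots of the other areas. In TN3, the 10 spots led by Dcn had 56296 CPM of summed Schwann myelin genes, 2118 CPM of Myoc and 393 CPM of Il33, against 15505, 206 and 88.4 CPM in the 47 spots led by Mgp. These 47 had 2679 CPM of Fn1, 453 of Postn, 606 of Tagln and 1472 of Bgn, against 544, 75.3, 25.1 and 402 CPM in the 10. In TN2, 3 spots led by Dcn had 53282 CPM of summed Schwann myelin genes and 1752 CPM of Myoc, against 16633 and 127 CPM in 69 spots led by Mgp. In TN1, 4 spots led by Mgp had 2119 CPM of Tagln, 387 of Acta2 and 1105 of Eln, against 49.8, 2.93 and 5.86 CPM in the 85 led by Dcn. Within TN2 and TN3, spots led by Dcn thus had more Schwann myelin RNA and Myoc than spots led by Mgp, and the few spots in some of these groups limit the comparison. Within TN3, the Mgp share had a Spearman rho over 66 spots of 0.74 with summed mural genes, 0.62 with fibroblast genes and -0.65 with Schwann myelin genes; the corresponding values were 0.46, 0.10 and 0.11 over 88 spots in TN2 and 0.18, -0.03 and -0.35 over 96 spots in TN1. These spots share a library and a section, and the values are descriptive.

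**Figure D4:**
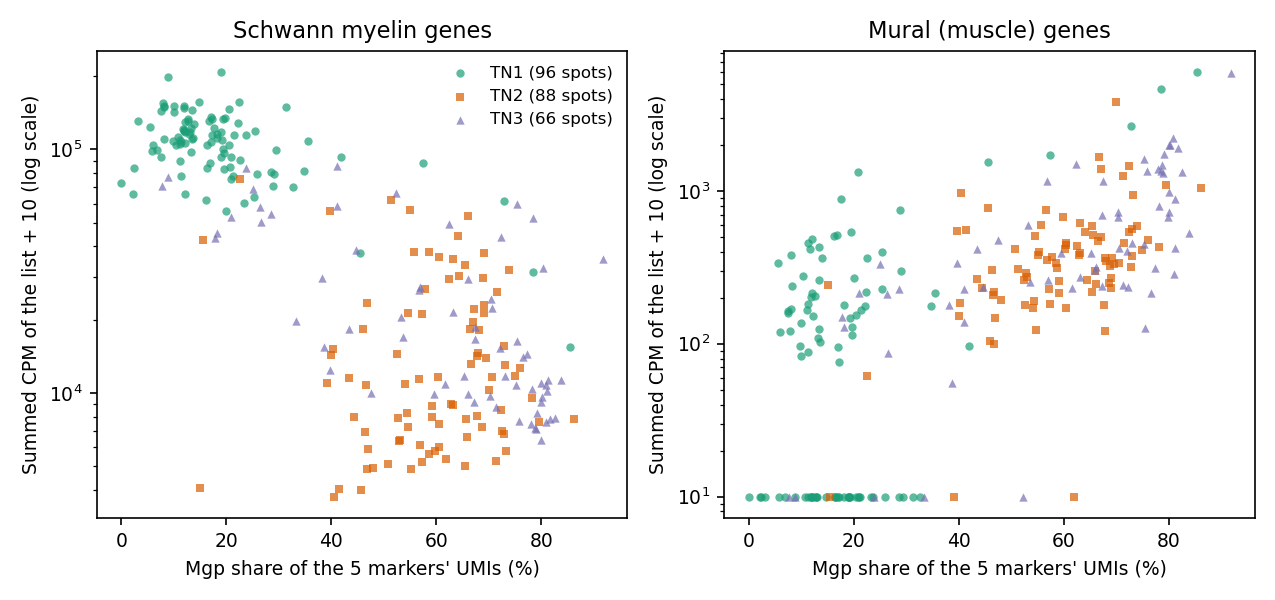
Each point is a chosen spot, with the Mgp share of its UMIs of the 5 markers on the horizontal axis and the summed CPM (plus 10, log scale) of 7 Schwann myelin genes (left) or 8 mural genes (right) on the vertical axis; colours and symbols are the TN areas. TN1 spots, with a median Mgp share of 16.5%, gather at the upper left of the Schwann panel, and in the mural panel the TN3 spots rise with the Mgp share (Spearman rho 0.74) while TN1 spots do so less (0.18).

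Over the rank of the chosen spots, matrix levels and the mix of areas changed together. From the 50 highest to the 50 lowest of the chosen spots, the median rule value fell from 17853 to 6111 CPM, and the TN1 spots went from 2 to 28 of 50. Over these bins Fn1 went from 2487 to 584 CPM, Postn from 500 to 80.4 CPM, Tagln from 540 to 83.0 CPM and Bgn from 1541 to 438 CPM. Since the areas differ in these levels, the same was read within each area. From the upper to the lower 50% of its chosen spots, Fn1 went from 418 to 261 CPM in TN1, from 1612 to 923 CPM in TN2 and from 3220 to 763 CPM in TN3. Postn was likewise lower in the lower part of each area, whereas Bgn and Tagln were so in TN2 and TN3 but not in TN1, where Bgn was at 202 and 214 CPM. The 50 spots that came next, just outside, had 589 CPM of Fn1 and 449 CPM of Bgn, close to the last bin inside. Their Postn, at 65.1 CPM, and Tagln, at 33.0 CPM, were below that bin.

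The comparison of TN with HC asks how spots high in the markers differed between compressed and control nerve, but HC had no chosen spot. It was therefore made in the 60 spots with the highest marker sum of each area, and over all spots of 2000 or more UMIs, with edgeR's quasi-likelihood test on UMIs summed per area. The median summed CPM of the markers in the 60 spots was 8288, 11088 and 10822 in TN1, TN2 and TN3 and 1938 in HC. Over all spots of 2000 or more UMIs this median was 441, 2026 and 1912 CPM in TN1, TN2 and TN3. In HC it was 392 CPM, close to TN1. The 60 HC spots were thus at the level of an ordinary TN2 or TN3 spot. In these spots, 0 of 9085 genes (0%) passed a Benjamini-Hochberg adjusted p of 0.05 in either direction, 1677 had an unadjusted p under 0.05, and DESeq2 called 192. Over all spots, 0 of 14901 genes (0%) passed, 1274 had an unadjusted p under 0.05, and DESeq2 called 156. With TN1 left out, edgeR called 1980 genes in the 60 spots and 2312 over all spots; 2 TN areas then stood against 1 HC area, whose own spread is taken to be like theirs.

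In the 60 spots, most fibroblast, collagen and basement membrane genes were above HC in every TN area. All 3 TN areas were above HC for 33.3% of the genes tested and below it for 32.1%, and for 10 and 1 of the 15 fibroblast genes tested, 9 and 0 of 13 collagens, and 10 and 0 of 10 basement membrane genes. Over all spots these counts were 7 and 3 of 18 fibroblast genes, 7 and 0 of 15 collagens, and 10 and 0 of 11 basement membrane genes. Meningeal genes were above and below HC in all TN areas for 7 and 1 of 12 in the 60 spots and for 15 and 0 of 16 over all spots. After TMM normalisation, Col3a1 was at 2555, 3055 and 4163 CPM in TN1, TN2 and TN3 and at 755 CPM in HC, a log2 fold change of 2.11 ± 0.43 (SE; edgeR adjusted p = 0.126). Fn1 was at 419, 1389 and 2328 CPM against 124 CPM in HC, with a log2 fold change of 3.48 ± 1.11 (SE; edgeR adjusted p = 0.216). Neither difference passed the threshold in edgeR. Both genes were named for their levels in the chosen TN spots, and the 60 spots were picked by markers whose level was lower in HC. A higher TN level was thus favoured by the choice, so passes in DESeq2 or with TN1 left out carry no result. Clec3b, the epineurial gene, had 48, 383 and 109 UMIs in the TN areas and 0 in the 60 HC spots. It entered the test through the TN areas alone and was named for its level in the chosen TN spots. Its values in these 60 spots are therefore a description only. Over all spots Clec3b was at 13.5, 39.8 and 29.8 CPM against 0.581 CPM in HC (edgeR adjusted p = 0.556). That difference did not pass in edgeR, but it passed in DESeq2 and in edgeR with TN1 left out.

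Some other genes that were high in the chosen spots overlapped between TN and HC. Bgn was at 224, 1075 and 1295 CPM in the 60 spots of TN1, TN2 and TN3 and at 236 CPM in HC, so that TN1 lay below HC. Serpinf1 was at 175, 292 and 454 CPM against 203 CPM, and Eln at 37.6, 85.7 and 165 CPM against 76.3 CPM. Col1a1 did not overlap, but in TN1, at 2396 CPM, it was close to HC at 2302 CPM, while TN2 and TN3 were at 4060 and 6203 CPM. Sensory neuron genes were below HC in all TN areas for 8 of 8 genes in the 60 spots and over all spots, where 30.6% of all genes were below HC and 28.7% above it. In the 60 spots, oligodendrocyte genes were below HC in all TN areas for 6 of 8, astrocyte genes for 4 of 5 and blood genes for 6 of 7, while macrophage genes were above it for 8 of 9, with a median log2 fold change of 1.81. The part of these cell types in the comparisons was not tested.

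**Figure D5:**
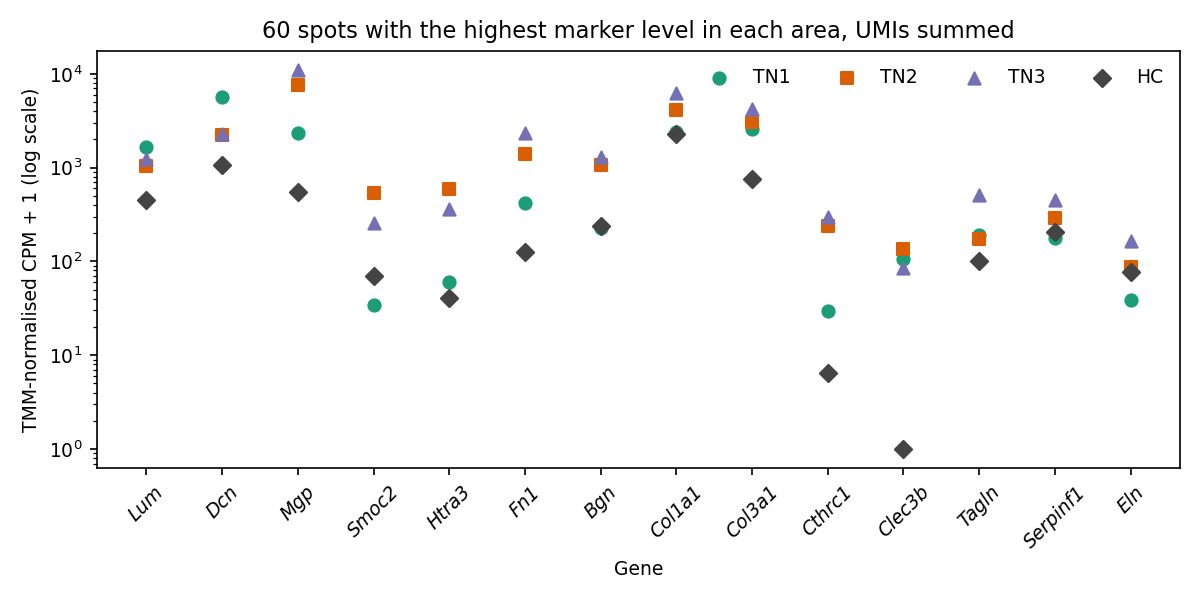
TMM-normalised CPM plus 1 (vertical axis, log scale) of the 5 markers and 9 other genes in UMIs summed over the 60 spots with the highest marker level of each area. Each symbol is 1 area. The 5 markers chose these spots, so their values are a description only. Among the other genes HC lies below all 3 TN areas for Fn1, Col3a1, Cthrc1, Clec3b and, close to TN1, for Col1a1. It lies between them for Bgn, Serpinf1 and Eln.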

How the data were processed

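Tissue sections were measured on 4 Visium capture areas. Per the file header, Space Ranger 1.2.0 made the table, and STAR is named in the submitters' processing notes. The genome build, annotation release and any equalising of depth between areas are not stated in the sources used here. The deposited values are whole-number counts without normalization, for spots only, with no image or coordinates. The number after each barcode was matched to TN1, TN2, TN3 and HC in the order of the series description. Spots with under 2000 UMIs were left out, and the 250 with the highest summed CPM of Lum, Dcn, Mgp, Smoc2 and Htra3 were kept. No doublet caller was run. UMIs were summed per area, and log2((CPM + 5)/(CPM + 5)) of chosen to other spots was taken within each area with 20 or more chosen spots, for genes of 1 CPM or more in every such area. Genes were named by a fixed rule: the markers, the 15 genes with the highest lowest ratio, the 10 with the lowest highest ratio and, for each list, its leading members and those needed to account for it; Il33, Gh1 and the genes that separate TN1 from TN2 and TN3 were named after their values were seen. TN was compared with HC by edgeR 4.0.16 in R 4.3.3 (glmQLFit, TMM, filterByExpr, Benjamini-Hochberg), with DESeq2 1.42.0 as an alternative; SE is the log2 fold change over the square root of F. The test planned for the chosen spots could not be made, since HC had none. The tests were also tried on simulated data, with an outcome that is not given here. An area is the replicate, and HC is 1 area, so p-values rest on the spread of 3 TN areas. The spots, markers, lists and tests were chosen with earlier results of these data known.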

Additional observations from a re-analysis of the deposited data

How the results depend on the processing

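The chosen spots stayed off HC under every alternative choice of spots (0% in each). With 150 or 400 spots kept this was fixed in advance, since the first HC spot stood at rank 736. The other choices used the same 5 markers and are no separate evidence. With 150 spots kept, TN1 held 28.7% of them in place of 38.4%. Choosing by the mean rank over the 5 markers gave TN1 2.4%, TN2 64.8% and TN3 32.8%; TN1 then had too few spots to be used, and the counts of genes 2-fold higher and lower in TN2 and TN3 were 158 and 117. A pseudocount of 1 CPM gave 142 and 192, 400 spots gave 105 lower genes, and leaving out an area in turn gave 123 to 177 higher and 72 to 428 lower genes. Over all spots, TN against HC gave 156 calls with DESeq2 and 0 to 2312 calls when a TN area was left out. In the highest 60 spots of each area it gave 192 calls with DESeq2, 237 with no filter on low counts and 0 to 1980 when a TN area was left out; the larger number came without TN1 each time. Of the 39 gene values recomputed, Ptgds, whose mean log2 ratio was -0.27, changed sign to 0.96 by mean rank, 0.13 without TN3 and 0.0037 with 400 spots, and the others kept their direction. In 3 alternatives a ratio moved by more than its SD over areas, and in 33 a TN to HC difference passed the threshold. The 33 include all 5 markers in the highest 60 spots without TN1, and Mgp there with DESeq2. Choosing spots by these markers set those outcomes, so they carry no result. Other genes that passed in the 60 spots were named for their levels in the chosen TN spots, so their passes there carry no result either. Markers are also among the passes over all spots. The cause of the differences between alternatives was not tested. No paired analysis was possible because HC is a single area whose label carries no replicate number. Depth limits TN1 most, where the chosen spots had a median of 7026 UMIs, and genes near 1 CPM there rest on a single UMI.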
